A study of Homo sapiens with 12 samples.

Results

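Cholesterol synthesis and sterol control genes were followed in HCC70 cells, a human basal-like breast cancer line, in which the RNA of LAD1 had been lowered by a stable short hairpin RNA and which were stimulated with epidermal growth factor (EGF). The set holds 31 genes, chosen by symbol from the 26365 gene symbols of the table. They were chosen for their known place in cholesterol synthesis, in its control by sterol regulatory element binding proteins (SREBP), and in sterol transport. Earlier results of these data were known at that choice. Shares of the set beside those of all genes are therefore descriptive only. All 31 passed the filter on low values, which required 10 normalized counts or more in 2 or more libraries and left 13950 genes. Every cell population in the study carried a stable hairpin, either against LAD1 (shLAD1 cells) or with a scrambled sequence (scramble cells). All were deprived of serum overnight, and each kind of cell was then sampled without EGF (0 min) or after 40 or 240 min with EGF at 50 ng/ml. This gave 6 groups of 2 libraries, 12 in all. The labels name a single cell line and a single hairpin against LAD1, so loss of LAD1 and any other effect of that hairpin cannot be told apart. They name no library kept without EGF for 40 or 240 min, so EGF and elapsed time cannot be told apart either.

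Cholesterol is built from acetyl-CoA through mevalonate, farnesyl diphosphate, squalene and lanosterol, and most of the enzymes on this route are transcribed under SREBP-2, the product of SREBF2. When the membrane of the endoplasmic reticulum is rich in sterol, INSIG proteins hold the SREBP escort SCAP in place and transcription of the route is low. When it is poor in sterol, SCAP carries SREBP to the Golgi, where it is cut and released to the nucleus. Excess sterol instead yields oxysterols that activate the liver X receptors (LXR), which drive cholesterol export through ABCA1 and ABCG1.

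The libraries held 12428618 to 16721013 reads. Values are normalized counts, meaning reads divided by a size factor for the library, and levels of different genes are not compared because gene lengths were not used. Changes are log2 fold changes on the log2(normalized count + 1) scale ± the standard error of a limma-trend fit over all 12 libraries, with 2 libraries in each group, and genes with a Benjamini-Hochberg adjusted p below 0.05 were called. LAD1 stood at 5925 and 6406 at 0 min, 5808 and 6522 at 40 min and 9102 and 10194 at 240 min in scramble cells, and at 1091 and 865 at 0 min, 1181 and 971 at 40 min and 2535 and 2297 at 240 min in shLAD1 cells, so the hairpin label held in every library. The 8 basal-like epithelial markers checked summed to 76083 to 133067 normalized counts in scramble and 89388 to 144671 in shLAD1 libraries. The 9 markers of hormone receptors, leukocytes, endothelium and fibroblasts summed to 276 to 403 and 558 to 935, most of it COL1A1. The hormone receptor ESR1 was above 0 in every library, and the fibroblast markers COL1A2 and LUM, the hormone receptor PGR and the leukocyte marker PTPRC did not pass 1.11 in any library. Libraries numbered 1 and 2 differed in the same direction across groups. The level was higher in number 2 than in number 1 in all 3 scramble groups for 23 of the 31 sterol genes (74.2%, against 28.7% of all genes), and in all 3 shLAD1 groups for 20 (64.5%, against 32.4%). The labels do not say what the numbers mark. The numbers paired the samples, so a fit with the number as a block is given where it changes a call, and for EGF also a fit with a block for each of the 4 cell populations (hairpin by number).

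At 40 min of EGF the 1 rise called among the sterol genes without a block was in STARD4, in shLAD1 cells. STARD4 encodes a soluble carrier that moves sterol between membranes. It stood at 187 and 190.2 at 0 min, 279 and 277 at 40 min and 200.4 and 206 at 240 min in scramble libraries. The shLAD1 libraries read 112 and 134 at 0 min, 229.8 and 212 at 40 min and 150.4 and 181 at 240 min. Both 40 min libraries lay above both 0 min libraries with either hairpin. The change was 0.84 ± 0.13 in shLAD1 cells (adjusted p = 0.017, limma-trend), or 179% of the 0 min mean, and 0.56 ± 0.13 in scramble cells, which did not pass (adjusted p = 0.168). It was called in both with the population block (adjusted p = 0.00379 in scramble and 1.75e-05 in shLAD1 cells, limma-trend). The call in shLAD1 cells without a block was lost in 3 of the 4 fits that left out 1 library, with changes of 0.71 to 0.97 and adjusted p up to 0.131. Those were the fits without the first 0 min, the first 40 min or the second 40 min library. It was also lost when only the 2 groups were fitted (adjusted p = 0.474).

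INSIG1, which retains SCAP and is itself a classical SREBP target, had the largest 40 min shift of the 5 SREBP control genes with either hairpin. Its level was 5668 and 7739 at 0 min, 8027 and 9672 at 40 min and 4774 and 6640.1 at 240 min in scramble libraries. The corresponding shLAD1 values were 4855 and 5539 at 0 min, 8332 and 8224 at 40 min and 5043 and 5999 at 240 min. The 40 min values did not overlap the 0 min values with either hairpin, and in scramble cells number 2 was above number 1 at each time. The change of 0.41 ± 0.19 in scramble and 0.67 ± 0.19 in shLAD1 cells was not called without a block (adjusted p = 1 and 0.338, limma-trend), and was called in both with the population block (adjusted p = 0.00069 and 3.5e-06). IDI1, the isomerase that supplies the second isoprene unit, moved alongside. It read 8357 and 8819 at 0 min, 10082 and 10224 at 40 min and 7853 and 7947 at 240 min in scramble libraries. In shLAD1 libraries it read 9302 and 7370.1 at 0 min, 13409 and 9702 at 40 min and 9768 and 8299 at 240 min, where the number 1 population was the higher at every time. With the population block its changes were 0.24 ± 0.04 and 0.46 ± 0.04 (adjusted p = 0.00112 and 8.42e-08, limma-trend).

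**Figure D1:**
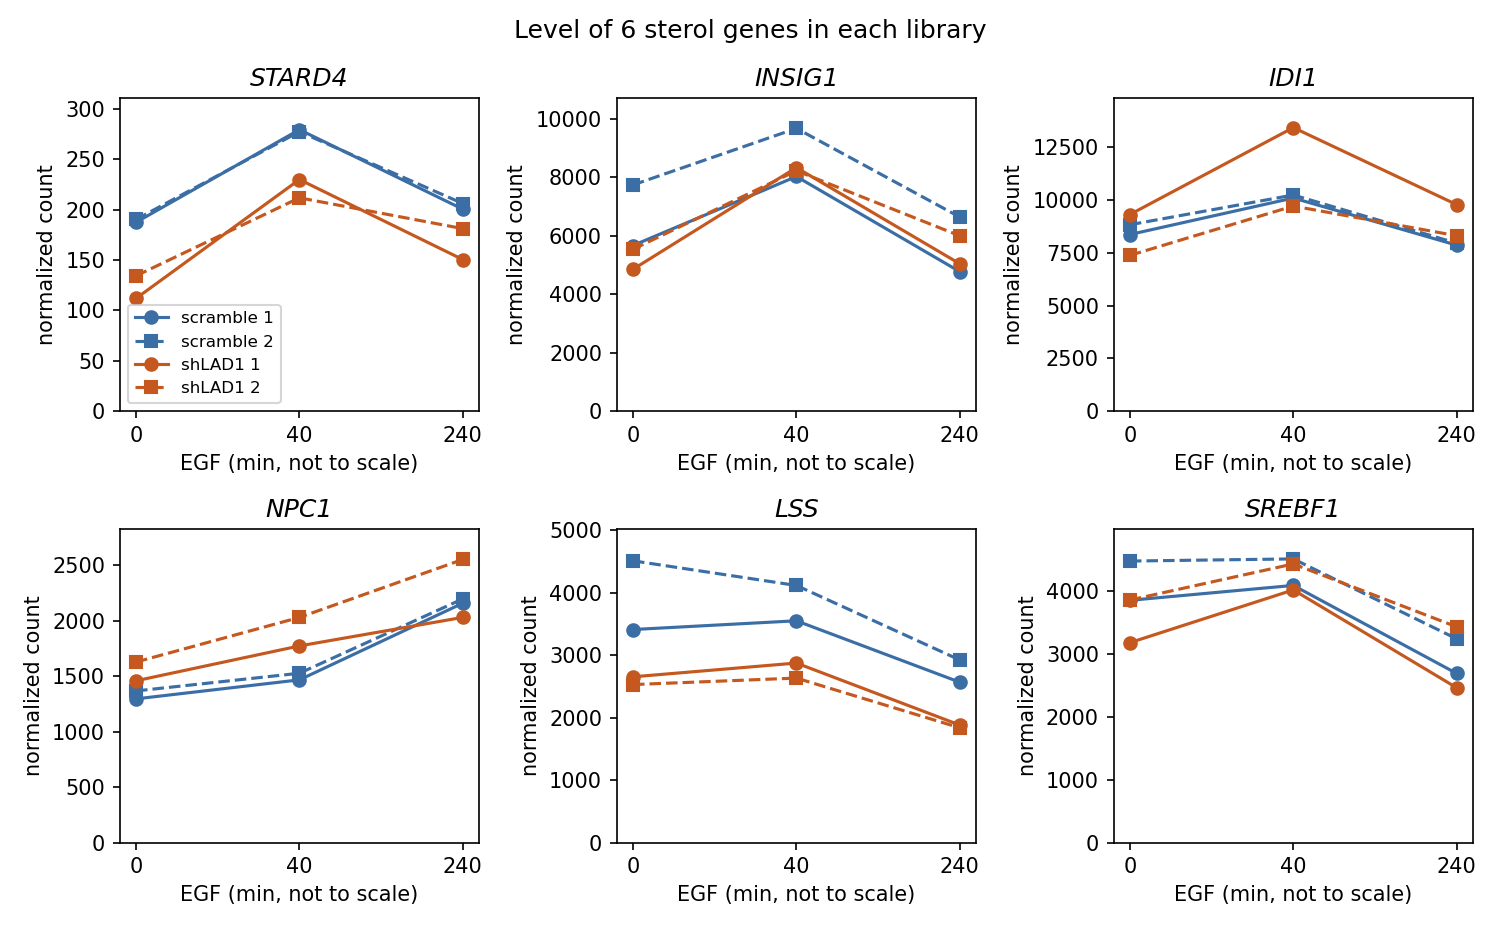
Normalized count (vertical axes, from 0) of 6 sterol genes at 0, 40 and 240 min of EGF, with 1 point for each library and lines joining libraries of the same hairpin and number; no error bar is drawn. STARD4, INSIG1 and IDI1 are highest at 40 min in all 4 populations, NPC1 is highest at 240 min and LSS and SREBF1 are lowest at 240 min.

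Over the whole set at 40 min, limma-trend called 0 of 31 genes in scramble cells (1 at an unadjusted p under 0.05, and 0 called by edgeR or DESeq2) beside 0.853% of all genes tested. It called 1 of 31 in shLAD1 cells beside 1.04%. With the population block 4 sterol genes were called higher and 0 lower in scramble cells, where 3.18% and 0.616% of all genes were. The 4 were IDI1, SC5D, INSIG1 and STARD4. In shLAD1 cells 10 were called higher and 0 lower, where 4.02% and 0.753% of all genes were. The 10 were the mevalonate route enzymes HMGCS1 (0.47 ± 0.05) and IDI1, the squalene and sterol ring enzymes SQLE (0.21 ± 0.04), CYP51A1 (0.36 ± 0.05), MSMO1 (0.22 ± 0.05) and SC5D (0.30 ± 0.05), and SREBF1, INSIG1, STARD4 and NPC1.

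Counted by population, 13 of the 31 genes (41.9%) were higher at 40 than at 0 min in all 4 populations, beside 15% of all genes, and 0 were lower in all 4, beside 13.9%. The 13 comprised HMGCS1, IDI1 and FDPS of the mevalonate route, SQLE, CYP51A1, MSMO1, HSD17B7, EBP and SC5D of the sterol route, the controls SREBF1 and INSIG1, and the transport genes STARD4 and NPC1. Many of these shifts were small: for FDPS, which makes farnesyl diphosphate, the 4 differences ran from 0.01 to 0.11 and for EBP, a sterol isomerase, from 0.05 to 0.08. Under upper-quartile scaling 11 of the 13 kept the direction in all 4 populations, and under total-count scaling 8 did, FDPS, SQLE, HSD17B7, EBP and SREBF1 being lost there. HMGCS1, IDI1, CYP51A1, MSMO1, SC5D, INSIG1, STARD4 and NPC1 kept it under both. SREBF2 was not among them. It read 10723 and 11975 at 0 min, 10596 and 11613 at 40 min and 10408 and 12142 at 240 min in scramble libraries. The shLAD1 libraries read 8858 and 10297 at 0 min, 9123 and 10758 at 40 min and 9021 and 10538 at 240 min. Its 40 min libraries overlapped the 0 min libraries in both, and its changes were -0.03 ± 0.13 and 0.05 ± 0.13 (adjusted p = 1 in each, limma-trend).

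The promoters of the 4 sterol genes that limma-trend called without a block in any EGF comparison are shown with that of SREBF2. STARD4 and INSIG1 were highest at 40 min in all 4 populations, NPC1 was highest and LSS lowest at 240 min. The sequences are the 250 bases before the transcription start from RefSeq, build GRCh38.p14, written 5′ to 3′ on the strand of the gene: STARD4 at chr5:111512536-111512785 (minus strand), INSIG1 at chr7:155297628-155297877 (plus strand), LSS at chr21:46228775-46229024 (minus strand), NPC1 at chr18:23586507-23586756 (minus strand) and SREBF2 at chr22:41832855-41833104 (plus strand). Capitals mark matches on either strand to the NF-Y box (CCAAT), the Sp1 box (GGGCGG) and the core of the sterol regulatory element (TCACNCCAC, where N is any base).
STARD4: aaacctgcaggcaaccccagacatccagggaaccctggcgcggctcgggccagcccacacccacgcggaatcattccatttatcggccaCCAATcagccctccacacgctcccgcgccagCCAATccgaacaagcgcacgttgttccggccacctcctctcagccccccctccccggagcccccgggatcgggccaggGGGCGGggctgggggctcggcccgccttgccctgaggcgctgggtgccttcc
INSIG1: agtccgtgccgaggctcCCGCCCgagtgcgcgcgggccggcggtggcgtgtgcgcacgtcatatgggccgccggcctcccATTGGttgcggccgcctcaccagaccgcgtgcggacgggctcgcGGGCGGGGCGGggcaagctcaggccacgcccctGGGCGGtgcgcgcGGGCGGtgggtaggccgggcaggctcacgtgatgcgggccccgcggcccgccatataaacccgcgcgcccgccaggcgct
LSS: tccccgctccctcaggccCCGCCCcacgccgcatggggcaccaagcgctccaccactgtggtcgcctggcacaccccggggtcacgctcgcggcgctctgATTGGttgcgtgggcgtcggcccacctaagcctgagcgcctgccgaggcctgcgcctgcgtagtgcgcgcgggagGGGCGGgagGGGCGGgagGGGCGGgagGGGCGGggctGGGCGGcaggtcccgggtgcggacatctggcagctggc
NPC1: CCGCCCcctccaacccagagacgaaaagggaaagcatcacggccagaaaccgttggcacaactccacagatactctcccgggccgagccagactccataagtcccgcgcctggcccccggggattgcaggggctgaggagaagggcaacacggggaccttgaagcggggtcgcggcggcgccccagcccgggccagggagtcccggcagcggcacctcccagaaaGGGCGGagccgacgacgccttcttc
SREBF2: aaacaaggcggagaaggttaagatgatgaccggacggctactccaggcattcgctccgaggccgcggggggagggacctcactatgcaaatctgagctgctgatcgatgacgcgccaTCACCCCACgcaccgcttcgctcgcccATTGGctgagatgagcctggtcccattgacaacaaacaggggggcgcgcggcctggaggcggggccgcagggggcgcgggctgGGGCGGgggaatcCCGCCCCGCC

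STARD4 holds 2 NF-Y boxes and 1 Sp1 box in these bases, and INSIG1 and LSS hold 1 NF-Y box each among a run of Sp1 boxes, some of which overlap in INSIG1. NPC1 holds 2 Sp1 boxes and no NF-Y box. Among the 27 sterol genes with a window, the sterol regulatory element core matched in SREBF2 alone, 133 bases before the start, with an NF-Y box at 106 bases, and the last Sp1 box of SREBF2 runs past the start. Windows of 300 bases (250 before to 50 after the start) were found for 27 of the 31 genes. The NF-Y box occurred in 18 of the 27 (66.7%), beside 39.7% of the 27305 genes in the reference. The Sp1 box occurred in 25 (92.6%), beside 48.3%, and the sterol regulatory element core in 1 (3.7%), beside 1.39%. The reference genes were not limited to those that passed the filter on low values, whereas all 31 sterol genes passed it. These shares are therefore not of like sets, and promoters of the genes that passed were not compared. A match is a description of the letters only, and elements with other letters or outside the window were not searched.

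By 240 min NPC1 had risen and LSS had fallen in both kinds of cell. NPC1 encodes the lysosomal membrane protein that exports cholesterol taken up with lipoproteins. It stood at 1296 and 1367 at 0 min, 1467 and 1527 at 40 min and 2159 and 2198 at 240 min in scramble libraries. The corresponding shLAD1 values were 1459 and 1628 at 0 min, 1773 and 2031 at 40 min and 2031 and 2553 at 240 min. Both 240 min libraries were above both 0 min libraries with either hairpin. The rise over 0 min was 0.71 ± 0.11 in scramble (adjusted p = 0.00277) and 0.56 ± 0.11 in shLAD1 cells (adjusted p = 0.00946, limma-trend), to 164% and 148% of the 0 min mean. The scramble call held in all 4 fits that left out 1 library (adjusted p up to 0.0269). The shLAD1 call was lost without the first 0 min library (0.48, adjusted p = 0.0555) or the second 240 min library (0.40, adjusted p = 0.0571), and when only the 2 groups were fitted (adjusted p = 0.115). NPC2, its soluble partner in the lysosome, was not called, with changes of -0.13 ± 0.28 and -0.08 ± 0.28 (adjusted p = 0.799 and 0.892).

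LSS encodes lanosterol synthase, which closes the sterol ring. Its level was 3413 and 4514 at 0 min, 3553 and 4119 at 40 min and 2569 and 2925 at 240 min in scramble libraries. In shLAD1 libraries it was 2655 and 2531 at 0 min, 2876 and 2635 at 40 min and 1883 and 1839 at 240 min. The 240 min libraries lay below the 0 and 40 min libraries with either hairpin. Against 0 min LSS fell by 0.52 ± 0.13 in scramble (adjusted p = 0.0231) and 0.48 ± 0.13 in shLAD1 cells (adjusted p = 0.0341, limma-trend), to 69.3% and 71.8% of the 0 min mean. The scramble call was lost without the second 0 min library (-0.32, adjusted p = 0.146), the first 240 min library (-0.42, adjusted p = 0.138) or the second (-0.61, adjusted p = 0.0537), and when only the 2 groups were fitted (adjusted p = 0.067). The shLAD1 call was lost without any 1 of its 4 libraries (adjusted p up to 0.132), and when only the 2 groups were fitted (adjusted p = 0.0615). Fits with a block kept both (adjusted p = 1.01e-08 and 4.2e-08 with the population block).

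NPC1 and LSS were the only sterol genes called at 240 against 0 min, 1 higher and 1 lower in each kind of cell. In scramble cells 20.2% of all genes were called, 11.7% higher and 8.44% lower, and in shLAD1 cells 18.5%, 10.8% higher and 7.76% lower. With the population block 5 sterol genes were called higher and 10 lower in scramble cells, where 25.3% and 22.9% of all genes were. In shLAD1 cells 13 were called higher and 5 lower, where 24.7% and 21.6% were. CYP51A1, MSMO1, SC5D, INSIG2 and NPC1 were called higher in both. MVK, LSS, TM7SF2, SREBF1 and MYLIP were called lower in both. IDI1 was called lower in scramble (-0.12 ± 0.04) and higher in shLAD1 cells (0.12 ± 0.04), but the difference between the responses was not called (0.24 ± 0.06, adjusted p = 0.176 with the population block, limma-trend). Fits with a block, here and at the other times, were run on the deposited scaling alone. Without a block, total-count scaling took the median change of the 31 genes from -0.03 to -0.16 in scramble and from 0.085 to -0.036 in shLAD1 cells. The number of genes above 0 went from 13 to 5 and from 21 to 12. Small changes called with a block can therefore depend on the scaling.

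Among the control genes, SREBF1, which encodes the SREBP form best known for fatty acid synthesis and is an LXR target, read 3849.7 and 4474 at 0 min, 4087 and 4508 at 40 min and 2687 and 3238 at 240 min in scramble libraries. The shLAD1 libraries read 3177 and 3854 at 0 min, 4015 and 4428 at 40 min and 2459.7 and 3428 at 240 min. Its 240 min level was below its 0 min level in all 4 populations. The difference of -0.49 ± 0.17 in scramble and -0.27 ± 0.17 in shLAD1 cells was not called without a block (adjusted p = 0.0747 and 0.326, limma-trend) and was called with the number as a block (0.000802 and 0.023). In scramble cells it was also called by DESeq2 (adjusted p = 0.0297), under total-count scaling (adjusted p = 0.024) and when only the 2 groups were fitted (adjusted p = 0.035). MYLIP, an LXR target whose product marks lipoprotein receptors for breakdown, changed by -0.53 ± 0.28 and -0.47 ± 0.28, with adjusted p of 0.221 and 0.289 without a block and 0.000296 and 0.00101 with the population block. INSIG2, the isoform with the steadier expression in most cells, went the other way, with 0.36 ± 0.18 and 0.20 ± 0.18 (adjusted p = 0.21 and 0.505, and 0.000993 and 0.0479 with the population block).

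The enzymes did not move as one. MVK, the mevalonate kinase, changed by -0.45 ± 0.06 and -0.35 ± 0.06 at 240 min in the fit with the population block, and TM7SF2, a sterol reductase, by -0.61 ± 0.06 and -0.45 ± 0.06. CYP51A1, the lanosterol demethylase, changed by 0.32 ± 0.05 and 0.47 ± 0.05 in the same fit. LBR, a lamin B receptor with the same sterol reductase activity as TM7SF2, was not called (0.02 ± 0.05 and 0.10 ± 0.05, adjusted p = 0.72 and 0.0938). HMGCS1, the HMG-CoA synthase at the head of the route, read 3813 and 4958 at 0 min, 4218 and 5268 at 40 min and 4319 and 5204 at 240 min in scramble libraries. The corresponding shLAD1 values were 2456 and 3889 at 0 min, 3608 and 5050.3 at 40 min and 3008 and 5102 at 240 min, with number 2 above number 1 at every time. Its 240 min change was 0.12 ± 0.05 and 0.34 ± 0.05 with the population block (adjusted p = 0.0542 and 1.44e-05, limma-trend).

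Counted by population, 10 of the 31 genes (32.3%) were higher at 240 than at 0 min in all 4, beside 32.2% of all genes, and 7 (22.6%) were lower, beside 32.9%. The higher share is near the background. The 10 were HMGCS1, SQLE, CYP51A1, LBR, MSMO1, EBP, SC5D, INSIG2, STARD4 and NPC1, and the 7 were MVK, LSS, TM7SF2, SREBF1, MYLIP, NPC2 and ABCG1. Total-count scaling lowered the median of all genes by 0.127 in scramble and 0.12 in shLAD1 cells at 240 min. Under it CYP51A1, MSMO1, SC5D and NPC1 stayed higher in all 4 populations, and all 7 lower genes stayed lower under it and under upper-quartile scaling. Among all called genes the share called higher went from 58.1% to 50.1% with upper-quartile and 34.1% with total-count scaling in scramble cells, and from 58.1% to 49% and 34.6% in shLAD1 cells.

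**Figure D2:**
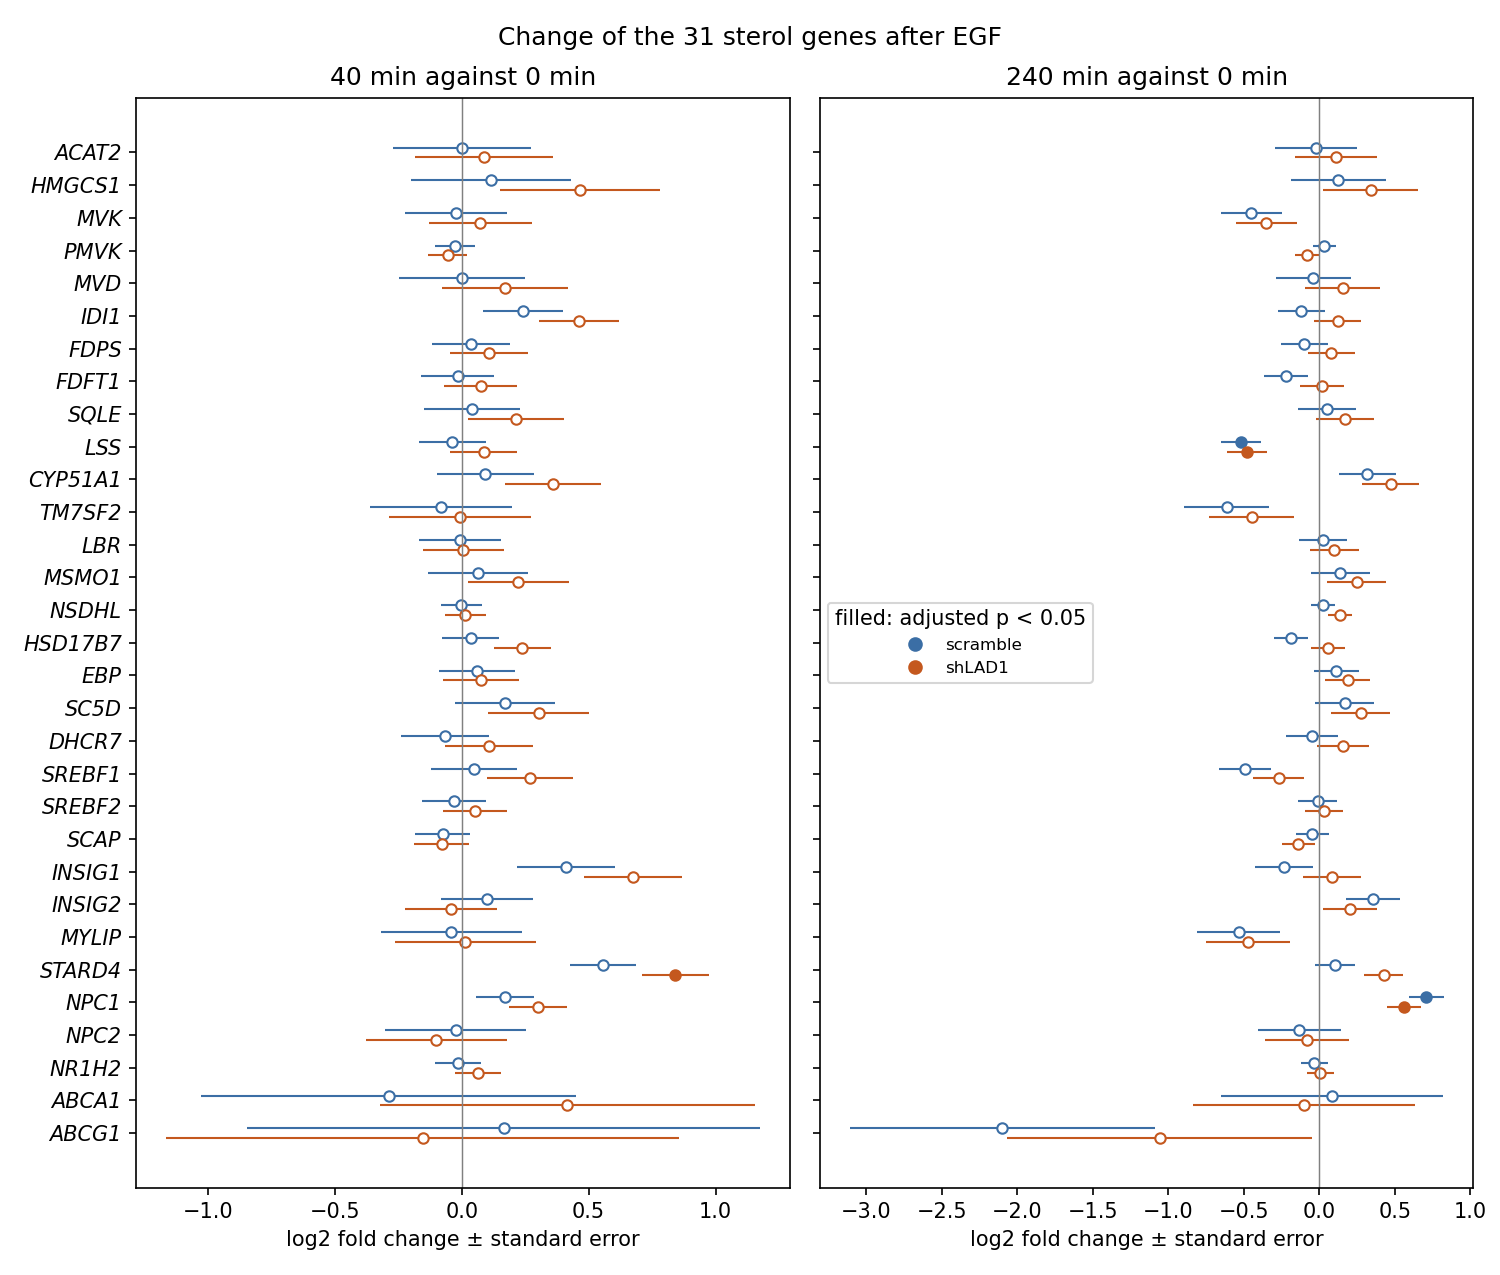
Log2 fold change of each of the 31 genes at 40 min (left) and 240 min (right) against 0 min, with bars of 1 standard error from limma-trend without a block; blue is scramble, orange is shLAD1, and filled points passed an adjusted p of 0.05. STARD4 is filled at 40 min in shLAD1 cells, and NPC1 and LSS are filled at 240 min in both kinds of cell.

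Between 40 and 240 min STARD4 and INSIG1 came back down in scramble cells. STARD4 fell by 0.45 ± 0.13 (adjusted p = 0.0419) and INSIG1 by 0.65 ± 0.19 (adjusted p = 0.0488, limma-trend). LSS fell by 0.48 ± 0.13 (adjusted p = 0.0333) and NPC1 rose by 0.54 ± 0.11 (adjusted p = 0.0112). In shLAD1 cells LSS alone was called, falling by 0.56 ± 0.13 (adjusted p = 0.0191), while the values were -0.59 ± 0.19 for INSIG1 (adjusted p = 0.0722) and -0.42 ± 0.13 for STARD4 (adjusted p = 0.0614). The shared 40 min libraries enter both the early rise and this fall. In scramble cells 1 sterol gene was called higher and 3 lower, where 18.5% of all genes were called (10.2% higher and 8.34% lower). In shLAD1 cells 0 were called higher and 1 lower, where 16.4% were called (8.84% higher and 7.56% lower). None of the 5 calls held in every fit that left out 1 library: LSS, STARD4 and NPC1 were lost without any 1 of the 4 libraries, with adjusted p up to 0.208, and INSIG1 in scramble cells was lost in 3 of 4 fits, all but the one without the second 240 min library. STARD4 in scramble cells was also lost with DESeq2 (adjusted p = 0.0719) and with no filter (0.0652), INSIG1 with no filter (0.0589) and with only the 2 groups fitted (0.0903), and LSS in shLAD1 cells with only the 2 groups fitted (0.0659).

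With the population block 3 sterol genes were called higher and 12 lower between 40 and 240 min in scramble cells, where 24.3% and 22.1% of all genes were. In shLAD1 cells 3 were called higher and 10 lower, where 23.4% and 21.2% were. By population, 10 genes (32.3%) were lower in all 4, beside 30.7% of all genes, and 5 (16.1%) were higher, beside 31.1%. The 10 were MVK, IDI1, LSS, TM7SF2, HSD17B7, SREBF1, INSIG1, MYLIP, STARD4 and ABCG1, and all 10 stayed lower under both other scalings. The 5 were CYP51A1, LBR, NSDHL, INSIG2 and NPC1, and INSIG2 and NPC1 alone kept that direction under both other scalings. Of all genes called between these times, the share called higher went from 54.9% to 51.7% with upper-quartile and 38.1% with total-count scaling in scramble cells, and from 53.9% to 50.2% and 38.8% in shLAD1 cells. IDI1 changed by -0.36 ± 0.04 and -0.34 ± 0.04 (adjusted p = 5.17e-07 and 1.41e-06, limma-trend with the population block), which took it to near its 0 min level. HSD17B7, a sterol ketone reductase, changed by -0.22 ± 0.07 and -0.18 ± 0.07 in the same fit.

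PMVK, FDFT1, NSDHL and SCAP gave no call without a block at any time. For PMVK, the phosphomevalonate kinase, the 240 min changes were 0.03 ± 0.08 and -0.08 ± 0.08 (adjusted p = 0.823 and 0.537, limma-trend). For FDFT1, the squalene synthase, they were -0.22 ± 0.14 and 0.02 ± 0.14 (adjusted p = 0.336 and 0.957), the scramble value being called with the population block (0.000528). For NSDHL, a sterol dehydrogenase, they were 0.03 ± 0.08 and 0.14 ± 0.08, and the shLAD1 value was called with that block (adjusted p = 0.0246). SCAP, the SREBP escort, stayed within 753 to 935 normalized counts over all libraries, with 240 min changes of -0.05 ± 0.11 and -0.14 ± 0.11 (adjusted p = 0.818 and 0.437).

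The efflux genes were low and uneven. ABCA1, which exports cholesterol to apolipoproteins, read 61.1 and 105 at 0 min, 45.2 and 94.4 at 40 min and 72.0 and 100.2 at 240 min in scramble libraries. In shLAD1 libraries it read 26.7 and 72.3 at 0 min, 35.7 and 97.4 at 40 min and 22.5 and 74.0 at 240 min. Number 2 was above number 1 in all 6 groups, and no EGF comparison called it without a block. With the population block it was called lower at 240 than at 40 min in shLAD1 cells (-0.52 ± 0.19, adjusted p = 0.032, limma-trend), where the pair differences were -0.64 and -0.39. ABCG1, a related exporter, had 1 to 28 reads in a library. Its normalized counts were 6.21 and 22.6 at 0 min, 11.1 and 16.7 at 40 min and 3.38 and 1.11 at 240 min in scramble libraries, and its 240 min libraries were below the others there. At 3 and 1 reads in those libraries its level could not be measured closely, and no fold is given. It was not called without a block (adjusted p = 0.187, limma-trend) and was called lower against 0 min with the population block (adjusted p = 0.00204). NR1H2, which encodes LXR-beta, stayed within 1471 to 2018 normalized counts and was not called after EGF under either block.

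Between the hairpins, a set of enzymes of the route stood lower in shLAD1 than in scramble cells at each time. Without a block limma-trend and edgeR called none of these differences, and DESeq2 called a few, given below. Comparing libraries of the same number and time gives 6 pairs, and 13 of the 31 genes (41.9%) were lower in shLAD1 cells in all 6, beside 17.2% of all genes. Only 1 gene (3.23%), NR1H2, was higher in all 6, beside 16.6%. The 13 were ACAT2, HMGCS1, MVD and FDPS of the mevalonate route, SQLE, LSS, CYP51A1, MSMO1, HSD17B7, SC5D and DHCR7 of the sterol route, SREBF2, and STARD4. All 13 kept this under upper-quartile and total-count scaling. Pairs of the same populations at 3 times are not independent, and for the hairpin itself the populations leave 2 against 2. Most sterol genes also shifted together by library number, as given above, so the 13 genes are not 13 separate observations.

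MVD, the decarboxylase that yields isopentenyl diphosphate, was among them. It read 6076 and 8465 at 0 min, 6338 and 8133 at 40 min and 5831 and 8336 at 240 min in scramble libraries. The shLAD1 libraries read 3918 and 4743 at 0 min, 4452 and 5284 at 40 min and 4068 and 5655 at 240 min. Every shLAD1 library was below every scramble library, with pair differences of -0.84 to -0.51. SQLE, the squalene epoxidase that catalyses a rate-limiting step, read 8763 and 10637 at 0 min, 9069.8 and 10876 at 40 min and 8989 and 11140.3 at 240 min in scramble libraries. The corresponding shLAD1 values were 6260.4 and 7679.5 at 0 min, 7335 and 8801 at 40 min and 6720.1 and 9053 at 240 min. The ranges overlap across times, but within pairs the differences were -0.49 to -0.30. For SREBF2, whose values are given above, the pair differences were -0.28 to -0.11. For LSS they were -0.83 to -0.30, for ACAT2, the cytosolic thiolase that starts the route, -0.66 to -0.37, and for DHCR7, a late sterol reductase, -0.61 to -0.31. HMGCS1 and CYP51A1 were lower in all 6 pairs by margins that nearly reached 0 in some, with -0.63 to -0.03 and -0.53 to -0.01.

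**Figure D3:**
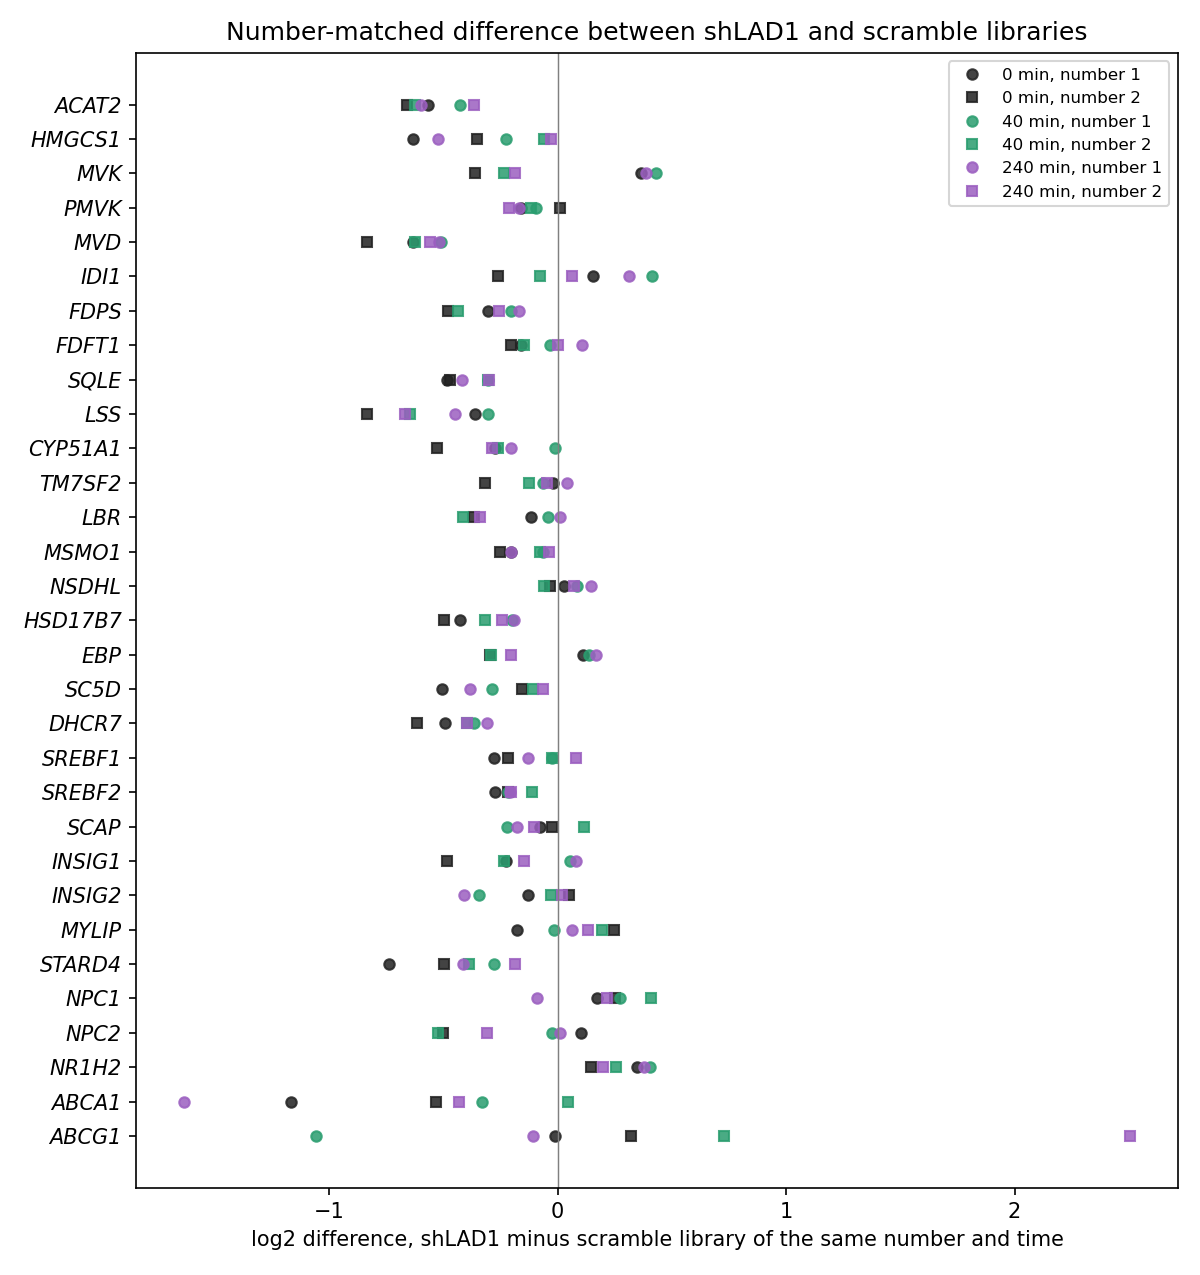
Log2 difference of shLAD1 minus scramble for each of the 31 genes, with 1 point for each pair of libraries of the same time (colour) and number (circle or square); no error bar is drawn. For 13 genes, MVD, ACAT2 and SQLE among them, all 6 points lie below 0, while for MVK, IDI1 and EBP the circles lie to the right of the squares at each time.

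Without a block limma-trend called 0 of 31 genes at 0 min (8 at an unadjusted p under 0.05), 0 at 40 min (5) and 0 at 240 min (4), beside 1.56%, 1.65% and 0.953% of all genes. edgeR called 0 at each time, and DESeq2 called 3 at 0 min (MVD, LSS and DHCR7), and LSS alone at 40 and at 240 min. Of the 13950 genes DESeq2 called 246 higher and 264 lower at 0 min, 262 and 276 at 40 min, and 184 and 196 at 240 min. At 40 and 240 min 1 sterol gene of 31 is near that share. The medians over the 31 genes were -0.24, -0.14 and -0.16, where those of all genes were 0.00 at each time, with 26, 25 and 23 genes below 0. These moved with single libraries. At 0 min the medians ran from -0.39 without the first scramble library to -0.13 without the second, with 28 and 23 below 0, and the median without the first shLAD1 library was -0.16. At 40 min the median was 0.01 with 15 below 0 without the second scramble library, -0.06 with 20 below 0 without the first shLAD1 library, and -0.23 and -0.22 without the others. At 240 min it was -0.05 without the second scramble library and -0.04 without the first shLAD1 library, with 17 below 0 in each, and -0.27 and -0.26 without the others. With the number as a block 13 sterol genes were called lower at 0 min and 0 higher, where 5.8% and 5.67% of all genes were. The same 13 genes are those lower in all 6 pairs. Both are built on the same number-matched differences, so their match is no separate support. At 40 min 7 were called lower and 2 higher, where 5.42% and 5.89% of all genes were, and at 240 min 7 lower and 1 higher, where 5.37% and 5.11% were. ACAT2, MVD, SQLE, LSS and DHCR7 were called lower at all 3 times. In that fit MVD differed by -0.73 ± 0.07 at 0 min (adjusted p = 0.000256), -0.57 ± 0.07 at 40 min (0.00125) and -0.54 ± 0.07 at 240 min (0.00171). Without the block the same difference at 0 min had an error of 0.25 and an adjusted p of 0.197 (limma-trend). The number block leaves out the cell populations, and deviations correlated more within a hairpin than between hairpins. Libraries of 1 population at the 3 times then count as independent, though the hairpin rests on 2 against 2 populations. The errors and adjusted p of every hairpin difference with that block can therefore be too small.

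Several other genes differed by library number. MVK was higher in shLAD1 in the number 1 pairs (mean 0.39) and lower in the number 2 pairs (mean -0.26), and EBP (0.14 and -0.26) split in the same way. IDI1 was higher in the number 1 pairs (mean 0.29), while its number 2 pairs ran from -0.26 at 0 min to 0.06 at 240 min (mean -0.09). NPC2 was lower in the number 2 pairs (mean -0.44) and near level in the number 1 pairs (0.03). NR1H2 was higher in every pair (0.15 to 0.40) and was called with the number as a block at 40 min (0.33 ± 0.08, adjusted p = 0.0247) and 240 min (0.29 ± 0.08, adjusted p = 0.0434). NPC1 was called higher at 40 min in that fit (0.34 ± 0.08, adjusted p = 0.0171). ABCA1 was called lower at 240 min in it (-1.03 ± 0.28, adjusted p = 0.0406), where the pair differences were -1.64 and -0.43. Over all times its pair differences ran up to 0.05, at 40 min. At 240 min it was not called without a block (adjusted p = 0.551, limma-trend). COL1A1, which makes up most of the marker sum for other cell types, was higher in every shLAD1 library (506 to 895 normalized counts, against 243 to 374), and its part in these differences was not tested. In bulk RNA a change in the share of a kind of cell and a change in RNA per cell cannot be told apart.

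Whether the hairpin altered the response to EGF was tested as the difference between the responses. limma-trend called 0 of 31 sterol genes at 40 min and 0 at 240 min, beside 0% and 0% of all genes, with 0 sterol genes at an unadjusted p under 0.05 and 0 called by edgeR or DESeq2. The differences were mostly positive, meaning a higher response in shLAD1 cells: 26 of 31 at 40 min (median 0.10) and 26 of 31 at 240 min (median 0.11), beside 51.9% and 50.3% of all genes. Both use the same 0 min libraries, in which 26 of the 31 were lower in shLAD1 cells by their group means. These counts moved with single libraries. Without the second scramble 0 min library 16 of 31 were positive at 40 min (median 0.0021) and 14 at 240 min (median -0.04). At 40 min 19 were positive without the first scramble 40 min library (median 0.02), 20 without the first shLAD1 0 min library (median 0.03) and 21 without the second shLAD1 40 min library (median 0.04), and medians went up to 0.28 without others. At 240 min 13 were positive without the first scramble 240 min library (median -0.04), 15 without the second shLAD1 240 min library (median -0.01) and 19 without the first shLAD1 0 min library (median 0.06), and medians went up to 0.31 without others. For STARD4 the difference was 0.28 ± 0.19 at 40 min and 0.32 ± 0.19 at 240 min, and for HMGCS1 0.35 ± 0.45 and 0.22 ± 0.45 (adjusted p rounding to 1 for each, limma-trend). For SREBF2 it was 0.08 ± 0.18 and 0.04 ± 0.18. With the population block 0 sterol genes were called at either time, but 10 of 31 had an unadjusted p under 0.05 at each, and 0.0789% and 0.194% of all genes were called. The lowest adjusted p among the sterol genes in that fit was 0.103 at 40 min, for HMGCS1 (0.35 ± 0.07), and 0.176 at 240 min, for IDI1, given above. Missing the threshold does not show that the responses are alike.

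Genes around the route were read from 5 further lists. Of 14 genes of SREBP-driven fatty acid synthesis, LPIN1, which encodes a phosphatidate phosphatase, rose at 240 min by 0.59 ± 0.07 in scramble and 0.93 ± 0.07 in shLAD1 cells (adjusted p = 0.000878 and 0.000145, limma-trend), and at 40 min in shLAD1 cells by 0.42 ± 0.07 (adjusted p = 0.0322). The other 13 were not called against 0 min without a block. At 240 min 1 gene higher of 14 is no more than the share of all genes, 11.7% in scramble and 10.8% in shLAD1 cells. At 40 min 1.04% of all genes were called in shLAD1 cells. With the number as a block 3 of the 14 were called higher and 1 lower at 240 min in scramble cells, where 18% and 14.7% of all genes were, and 5 higher and 0 lower in shLAD1 cells, where 17.2% and 13.3% were. LPIN1 was also lower in shLAD1 cells, with differences of -1.02 ± 0.07 at 0 min, -0.61 ± 0.07 at 40 min and -0.67 ± 0.07 at 240 min (adjusted p = 0.00108, 0.00922 and 0.00809). It read 1599 and 1725 at 0 min, 1663 and 1693 at 40 min and 2394 and 2605 at 240 min in scramble libraries, and 805 and 831 at 0 min, 1131 and 1066 at 40 min and 1512 and 1618 at 240 min in shLAD1 libraries. With the number as a block 7 of 14 fatty acid genes were called lower in shLAD1 cells at 0 min, 5 at 40 min and 7 at 240 min, where 5.8%, 5.42% and 5.37% of all genes were, with 0, 0 and 1 higher. FASN, the fatty acid synthase, differed by -0.66 ± 0.35 at 0 min, with an adjusted p of 0.423 without the block and 0.000196 with it (limma-trend). The limit of that block given above holds for these counts and for FASN.

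Of 7 LXR partners and targets tested (of 8 listed), 3 fell at 240 min in both kinds of cell and 0 rose, where 8.44% and 7.76% of all genes were called lower and 11.7% and 10.8% higher. With the number as a block 5 were called lower in scramble and 4 in shLAD1 cells, where 14.7% and 13.3% of all genes were. The 3 called without a block were RXRA and RXRB, which encode the receptors that pair with LXR, and ABCA7, which encodes a lipid transporter. No other gene tested on this list was called at 240 against 0 min without a block, so the count is not one of LXR targets alone. RXRA changed by -0.54 ± 0.09 and -0.57 ± 0.09 (adjusted p = 0.0045 and 0.00378), RXRB by -0.61 ± 0.11 and -0.54 ± 0.11 (0.00491 and 0.00951), and ABCA7 by -0.93 ± 0.17 and -0.89 ± 0.17 (0.00497 and 0.0068, limma-trend). Of 12 genes of sterol uptake, storage and transport, 2 rose at 240 min in both and 0 fell, a share near that of all genes given above, and the number block added 2 lower in each, VLDLR and OSBP. The 2 that rose were LRP8, a lipoprotein receptor, by 0.70 ± 0.10 and 0.82 ± 0.10 (adjusted p = 0.00163 and 0.000956), and SOAT1, which esterifies cholesterol for storage, by 0.39 ± 0.09 and 0.35 ± 0.09 (adjusted p = 0.0134 and 0.0219). Of 14 genes of SREBP processing and sterol-regulated degradation, 2 were called higher at 240 min in both and 0 lower, a share near that of all genes. They included UBE2G2, a ubiquitin-conjugating enzyme, which rose by 0.53 ± 0.07 and 0.57 ± 0.07 (adjusted p = 0.00134 and 0.00125). Of 13 genes of the isoprenoid branches, 1 was called higher at 240 min in both and 0 lower, no more than the share of all genes. It was RABGGTB, a subunit of the enzyme that prenylates Rab proteins, which rose by 0.40 ± 0.09 and 0.36 ± 0.09. Between the hairpins TMEM97, a sterol-responsive membrane protein, was lower at 0 min in shLAD1 cells (-0.73 ± 0.12, adjusted p = 0.0253), and NCEH1, a cholesteryl ester hydrolase, was higher at 40 min (0.51 ± 0.10, adjusted p = 0.0402). Each was the only 1 called at its time among the 12 genes of uptake, storage and transport. Of all genes 1.56% and 1.65% were called at those times.

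**Figure D4:**
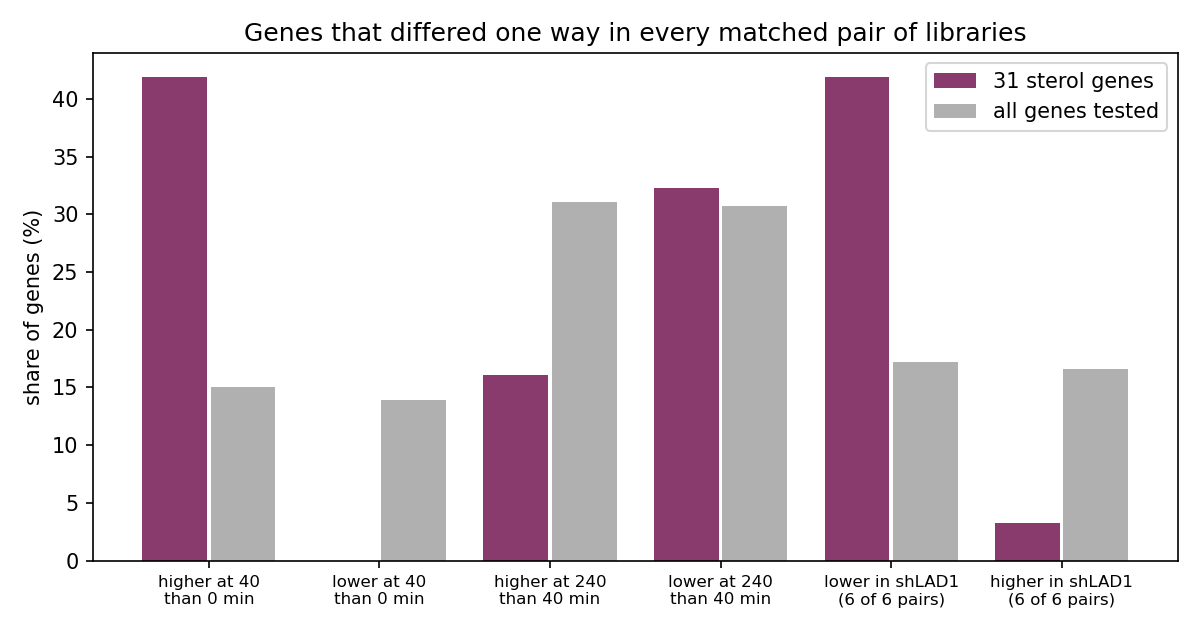
Share of genes (percent, bars from 0) that differed in 1 direction in every matched comparison of libraries, for the 31 sterol genes and for all 13950 genes tested; the comparisons are 4 populations for EGF and 6 pairs for the hairpin, and no error bar applies. The sterol genes stand at 41.9% for higher at 40 min and for lower in shLAD1 cells, where all genes stand at 15% and 17.2%. With total-count scaling the first becomes 25.8%, beside 9.52%. The comparison of 240 against 0 min is not drawn. There 32.3% of the sterol genes were higher and 22.6% lower, beside 32.2% and 32.9% of all genes.

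Several of these genes share their place in the genome with others, and the use of strand in counting is not given in the sources used here, so reads cannot be assigned with certainty there. Antisense genes overlap LSS, HMGCS1, FDPS, CYP51A1, IDI1, SREBF2 and STARD4. Protein-coding genes on the opposite strand overlap ACAT2 (TCP1 and SOD2), MVK (MMAB), NPC1 (RMC1), NPC2 (ISCA2) and SREBF1 (RAI1), while VPS51 overlaps TM7SF2, and 2 protein-coding models without a gene name overlap CYP51A1, on the same strand. A long noncoding RNA overlaps FDFT1 on the opposite strand. Pseudogenes are named after FDPS (8), CYP51A1 (3) and HSD17B7 (2), so their counts are uncertain to the extent that reads were split between copies.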

How the data were processed

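The authors deposited a single table of normalized counts (a signal), which per the submitters' processing notes was made with STAR, DESeq2 and build hg19. Software versions, the annotation, the counting tool and strand use were not given in the sources used here. All values (100%) were whole multiples, to within 0.001, of the lowest nonzero value of their library, taken as 1 read. The authors' own comparison in that table, its contrast unnamed, was not used.

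Differences were fitted with limma-trend (limma 3.58.1, R 4.3.3, robust) on log2(normalized count + 1), a mean per group over 12 libraries, with adjustment over 13950 genes within each of 11 comparisons. The code was tested on simulated data. Deviations from group means correlated, across genes, at 0.645 to 0.734 in 6 pairs of groups with the same hairpin and 0.247 to 0.307 in 9 pairs with different hairpins, so the library numbers of the labels pair the samples. Nothing states separate cultures, so p-values measure only the spread between these samples. Alternatives were edgeR (4.0.16) and DESeq2 (1.42.0) on recovered reads, blocks, other scalings, filters and pseudocounts, and leaving out libraries. The design named edgeR only for raw counts. The 31 genes, their roles and the 5 further lists were chosen with earlier results of these data known. All 31 are named, with values in every library for those called after EGF and for INSIG1, SREBF1, SREBF2, HMGCS1, SQLE and ABCA1; IDI1, MVD, ABCG1 and LPIN1 were given so after their values were seen. From each further list at most 3 genes called without a block are named per comparison, and FASN was added after its values were seen. VLDLR and OSBP, called with the number block alone, are named beyond that rule. A gene of these lists is not reported here. Overlapping genes come from a later annotation and build.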

Additional observations from a re-analysis of the deposited data

How the results depend on the processing

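With the number as a replicate block 8 and 10 sterol genes were called in scramble cells (240 against 0 and 240 against 40 min). All genes called there were 2509 higher and 2048 lower, and 2304 higher and 1947 lower, of 13950. In shLAD1 cells 3, 10 and 7 were called (40 against 0, 240 against 0 and 240 against 40 min). All genes called there were 257 higher and 17 lower, 2398 and 1851, and 2131 and 1873. At 240 min these sterol counts were near or below the shares of all genes. Between the hairpins 13, 9 and 8 were called at 0, 40 and 240 min, beside the shares given above. With the replicate block within each hairpin the EGF counts went to 4, 15 and 15 in scramble and 10, 18 and 13 in shLAD1 cells. The order is 40 against 0, 240 against 0 and 240 against 40 min, and the shares of all genes are given above. The blocks changed no call of the response differences. DESeq2 called 2 (40 against 0 min) and 3 (240 against 40 min) in shLAD1 cells. All genes it called there were 214 higher and 5 lower, and 1251 higher and 987 lower, of 13950. Between the hairpins it called 3, 1 and 1, beside the counts of all genes given above. No filter left 2 calls at 240 against 40 min in scramble cells, where 1288 genes were called higher and 1014 lower of 20013. Total-count scaling gave 4 there in shLAD1 cells, where 918 genes were called higher and 1450 lower of 13910. Fitting the compared groups alone left 0 in all 3 shLAD1 EGF comparisons. Leaving out 1 library gave 1 to 2 and 0 to 1 in scramble cells (240 against 0 and 240 against 40 min), 0 to 1, 0 to 2 and 0 to 1 in shLAD1 cells, and 0 elsewhere; a group left with 1 library is assumed to vary like the others. Scalings added after seeing the data changed the counts of genes that moved 1 way in all 4 populations. Those higher at 40 min went to 8 with total counts (25.8%, beside 9.52% of all genes). Those lower went to 1 with upper quartiles (3.23%, beside 21%) and 3 with total counts (9.68%, beside 27.8%). At 240 against 0 min total counts gave 4 higher (12.9%, beside 21.9%) and 14 lower (45.2%, beside 47%). At 240 against 40 min 3 were higher with upper quartiles (9.68%, beside 28.9%). Total counts gave 2 higher there (6.45%, beside 23.8%) and 19 lower (61.3%, beside 39.3%). The cause was not tested. No value called without a block changed sign under the alternatives run. Of 105 values called with a block, 9 changed sign in a fit without a block that left out 1 library. In shLAD1 cells at 240 against 0 min HMGCS1 went to -0.04, SQLE to -0.05 and MVD to -0.08 without the second 240 min library, IDI1 to -0.05 without the second 0 min library and INSIG2 to -0.02 without the first. In scramble cells MSMO1 went to -0.02 without the first 0 min library and -0.01 without the second 240 min library, and INSIG1 to 0.0036 without the first 240 min library. At 240 against 40 min FDPS in scramble cells went to 0.03 and 0.04 without the second 40 min or first 240 min library, and ABCA1 in shLAD1 cells to 0.19 and 0.32 likewise. Over all alternatives adjusted p ran from 6.81e-11 to 0.0269 (scramble) and 4.05e-09 to 0.115 (shLAD1) for NPC1 at 240 against 0 min, from 1.01e-08 to 0.146 and 4.2e-08 to 0.132 for LSS, from 2.08e-06 to 0.317 and 0.00121 to 0.929 for SREBF1, from 0.00379 to 0.820 and 1.75e-05 to 0.474 for STARD4 at 40 min, and from 0.000256 to 0.665 for MVD between the hairpins at 0 min. Depth limits what can be said of ABCG1, which had 1 to 28 reads in a library.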
